A study of Mus musculus with 6 samples.

Results

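Delta protocadherins are a group of cell adhesion proteins among the protocadherins that lie outside the large gene clusters. Of 49671 listed genes, 8 were taken by symbol and matching Ensembl identifier: Pcdh1, Pcdh7 and Pcdh9 of the delta-1 subgroup, Pcdh8, Pcdh10, Pcdh17 and Pcdh18 of the delta-2 subgroup, and Pcdh20, a more distant relative. They do not cover the whole group. They were selected on their level in each library and their Cre over Flp ratio per clone, so both are described here and not tested. RNA came from mouse induced renal epithelial cells (iRECs), made by reprogramming fibroblasts with transcription factors of the kidney tubule, of the strain B6.129S4-Pkd1tm2Ggg/J. The Cre cultures had been transduced with Cre recombinase and are labelled as Pkd1 knockout (Pkd1 -/-), and the Flp cultures had been transduced with Flp recombinase and are labelled as wild type with the floxed gene kept (Pkd1 fl/fl). All cultures grew to confluence in serum-containing fibroblast medium. Each of the clones 4, 7 and 21 gave 1 Cre and 1 Flp library, so there were 3 libraries per group and 6 in all. Each line is 1 clone. Whether the clones stem from different animals is not stated in the labels, and p-values therefore cover only the variation among these 3 clones, which may be technical.

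Delta protocadherins carry a row of cadherin repeats outside the cell and bind weakly to the same protein on a neighbouring cell. Their cytoplasmic tails differ by subgroup. Tails of the delta-1 subgroup hold a motif that binds protein phosphatase 1, and several tails of the delta-2 subgroup recruit the WAVE complex, which drives branched actin assembly at cell contacts. The family is best known from the developing brain, where the members mark different groups of neurons, while Pcdh1 is also found in epithelia such as that of the airway.

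The libraries held 25196120 to 46918341 counted reads. The targeted gene, Pkd1, stood between 105 and 145 CPM (counts scaled to library size) in the Cre libraries and between 166 and 229 CPM in the Flp libraries. These are counts over the whole gene, so they check the deletion only in part. The 4 reprogramming factors and the 10 renal epithelial markers were all tested, with summed levels of 2869 to 3039 CPM and 6575 to 7967 CPM in Cre, against 2875 to 3266 CPM and 7352 to 8175 CPM in Flp. Abundant genes such as Lrp2, with a mean of 2856 CPM, weigh most in the renal sum, so it does not show single markers. Of the 10 renal markers, 7 had a positive log2 fold change, with a median of 0.05. Cre over Flp log2 ratios in clones 4, 7 and 21 were -0.64, 1.33 and 0.33 for Krt8 and 2.14, 4.65 and 0.04 for Cldn7. Both were named after their values were seen. Fibroblast markers summed to 27.5 to 36.3 CPM in Cre and 20.7 to 55.5 CPM in Flp, with Thy1 at 0 reads. Of the 10 neural markers, the type in which delta protocadherins are best known, only Map2 and Snap25 had 0 reads in all libraries. Each of the other neural markers had some reads, and 2 passed the filter on low counts. Endothelial markers summed to 0.240 to 0.875 CPM in Cre and 0.242 to 2.03 CPM in Flp, with Cdh5 and Emcn at 0 reads.

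The 8 members were split between detected and undetected genes. The promoters of 2 detected members are shown beside those of the undetected members closest to them in the genome. Pcdh10 and Pcdh18 lie on chromosome 3, and Pcdh17 and Pcdh20 on chromosome 14. The windows run from 250 bases before to 50 bases after the RefSeq gene start on GRCm38.p6 and are written 5′ to 3′ on the gene's strand, with each CG dinucleotide in capitals. They are chr3:45378148-45378447 (plus strand), chr3:49757267-49757566 (minus strand), chr14:84443313-84443612 (plus strand) and chr14:88471347-88471646 (minus strand), in the order below.
Pcdh10: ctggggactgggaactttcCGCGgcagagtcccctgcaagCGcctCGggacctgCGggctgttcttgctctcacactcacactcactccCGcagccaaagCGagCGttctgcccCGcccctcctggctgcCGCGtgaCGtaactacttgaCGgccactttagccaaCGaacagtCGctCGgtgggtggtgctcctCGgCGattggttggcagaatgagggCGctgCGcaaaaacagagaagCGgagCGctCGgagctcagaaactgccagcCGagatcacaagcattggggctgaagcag
Pcdh18: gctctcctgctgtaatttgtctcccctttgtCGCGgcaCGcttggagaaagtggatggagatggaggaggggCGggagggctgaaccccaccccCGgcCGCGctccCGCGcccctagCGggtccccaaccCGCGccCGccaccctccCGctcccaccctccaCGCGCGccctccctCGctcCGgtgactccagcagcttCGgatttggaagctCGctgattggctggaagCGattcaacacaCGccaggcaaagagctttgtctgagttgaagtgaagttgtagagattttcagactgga
Pcdh17: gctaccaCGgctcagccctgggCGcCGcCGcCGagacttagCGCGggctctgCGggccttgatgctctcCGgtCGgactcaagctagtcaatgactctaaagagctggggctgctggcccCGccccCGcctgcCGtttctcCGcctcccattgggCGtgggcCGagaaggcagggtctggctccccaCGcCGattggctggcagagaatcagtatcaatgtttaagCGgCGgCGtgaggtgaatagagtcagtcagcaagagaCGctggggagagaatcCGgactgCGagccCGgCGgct
Pcdh20: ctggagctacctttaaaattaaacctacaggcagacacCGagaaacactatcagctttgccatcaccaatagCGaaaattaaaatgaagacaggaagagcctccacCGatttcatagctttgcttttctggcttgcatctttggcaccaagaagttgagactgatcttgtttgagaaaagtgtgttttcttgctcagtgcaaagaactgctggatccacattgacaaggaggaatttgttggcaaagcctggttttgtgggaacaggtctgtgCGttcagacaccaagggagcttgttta
The windows of Pcdh10 and Pcdh17 held 24 and 26 CG dinucleotides, where the median of 32851 mouse promoter windows of the same length was 7. Fewer CG dinucleotides were held by 80.0% and 83.1% of these windows. A dense promoter did not go with detection throughout, since Pcdh18, which was not detected above the floor, held 23. The Pcdh20 window held 4. The remaining undetected members with a listed window had 11 (Pcdh7), 14 (Pcdh8) and, in 2 listed windows, 18 and 19 (Pcdh9). Searched on both strands, GGGCGG occurred once each in Pcdh10, Pcdh17 and Pcdh18 and in 35.7% of all windows, and its CG is among those in capitals. CCAAT occurred 2 times each in Pcdh10 and Pcdh17, once in Pcdh18, Pcdh20, Pcdh8 and each Pcdh9 window, and in 37.4% of all windows. TATAAA was found in the Pcdh8 window alone among the 7 members with a listed window and in 13.6% of all windows. Pcdh1, the most abundant member, had no listed window, so neither the CG counts nor these matches cover it. These matches describe letters only.

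Of the 8 members, Pcdh1, Pcdh10 and Pcdh17 were detected above the floor in these cultures. Pcdh7, Pcdh8, Pcdh9 and Pcdh20 had 0 reads in every library, which allows levels of up to 0.0632 CPM at the greatest depth and 0.121 CPM at the lowest. Pcdh18 had 3 reads in Flp clone 7 and 0 in the other libraries, so it was at the floor. These limits cover counting error only. The 4 members with no read were 50% of the 8 chosen genes, beside 23% of protein-coding genes and 43.1% of all listed genes. Only 3 of the 8 members, Pcdh1, Pcdh10 and Pcdh17, passed the filter on low counts and were tested.

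Per kilobase of exon, the order of the detected members was Pcdh1, Pcdh10, Pcdh17. Pcdh1 ranged from 17.3 to 40.5 CPM per kb, Pcdh10 from 0.625 to 7.77 CPM per kb and Pcdh17 from 0.00621 to 0.57 CPM per kb over the 6 libraries. The ranges of neighbours in this order did not overlap. On average Pcdh1 stood 10.5 times above Pcdh10, and Pcdh10 stood 12.6 times above Pcdh17. Pcdh1 was at the 88.9th percentile of protein-coding genes with a read, Pcdh10 at the 44.6th and Pcdh17 at the 27.3rd. Pcdh17 in Flp clone 4, with 2 reads, could not be told from the undetected members.

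**Figure D1:**
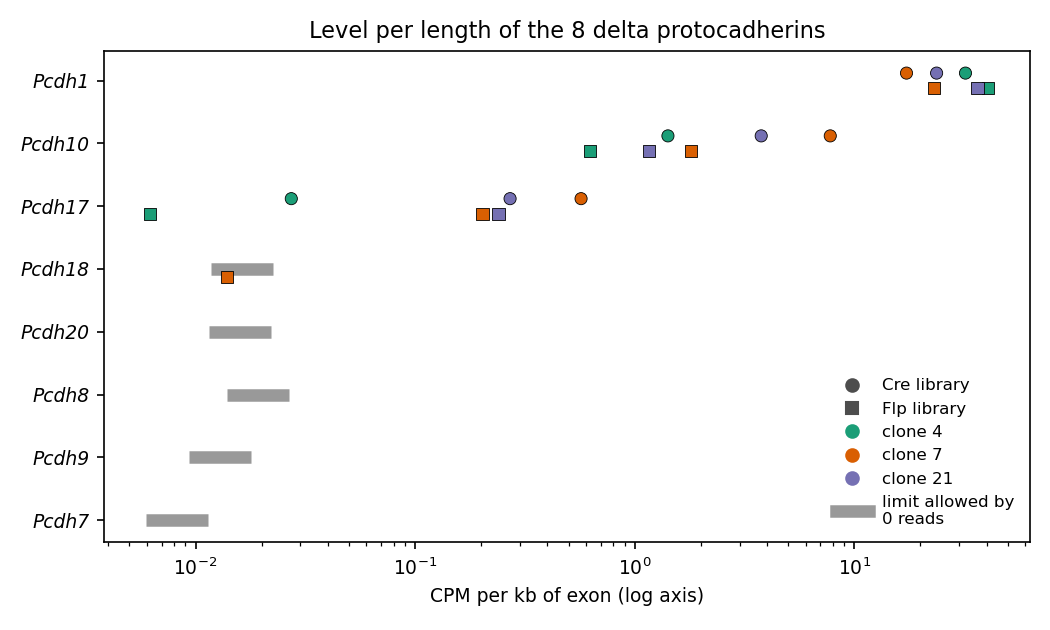
Level of each of the 8 delta protocadherins in CPM per kb of exon on a log axis. Circles are Cre and squares Flp libraries, coloured by clone, and grey bars span the limits that 0 reads allow over the 6 libraries for members with a library at 0. Pcdh1, Pcdh10 and Pcdh17 form 3 separate ranges, with Pcdh17 of clone 4 near the grey bars, and 5 members are at or under the limit.

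Pcdh10, a delta-2 member whose tail recruits the WAVE complex, was higher in Cre than in Flp in each clone. It lies on chromosome 3 at 45378398 to 45435623 (ENSMUSG00000049100, GRCm38, plus strand). It stood at 22.5, 123 and 59.8 CPM in Cre of clones 4, 7 and 21, against 9.93, 28.6 and 18.4 CPM in Flp of the same clones. The groups overlapped, since Cre clone 4 lay below Flp clone 7. The Cre over Flp fold was 2.27 in clone 4 (95% counting interval 1.97 to 2.62), 4.32 in clone 7 (4.04 to 4.62) and 3.26 in clone 21 (2.96 to 3.59). The group means were 68.6 ± 51.0 CPM over the Cre libraries, against 19.0 ± 9.34 CPM over the Flp libraries (mean ± SD, n = 3 each), and the fitted log2 fold change was 1.67 (SE 0.20). For Pcdh10 a log2 fold change of 1.35 and a mean of 1461 normalized counts stand in the authors' deposited table, where the count files gave a mean of 1484. Of its 15888 exon bases, 154 (0.969%) overlap the antisense gene 1700027H10Rik.

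Pcdh17, another delta-2 member that recruits the WAVE complex and organises axon bundles and synapses in mouse brain, had the lowest level of the detected members. It lies on chromosome 14 at 84443563 to 84539002 (ENSMUSG00000035566, plus strand). It stood at 0.355, 7.40 and 3.52 CPM in Cre of clones 4, 7 and 21, against 0.0807, 2.63 and 3.11 CPM in Flp. The groups overlapped, and both clone 4 libraries lay under all others. The reads behind these values were 15, 216 and 167 in Cre, against 2, 106 and 83 in Flp. The Cre over Flp fold was 2.81 in clone 7 (95% counting interval 2.22 to 3.58). In clone 21 it was 1.13, with an interval of 0.863 to 1.49 that includes equal levels. In clone 4 the ratio of 4.39 rested on the 2 Flp reads, with an interval of 1.02 to 39.6. The fitted log2 fold change was 1.05 (SE 0.45), which became 1.66 without clone 21 and 0.72 without clone 7. For Pcdh17 the authors' deposited table lists 0.35 with a mean of 96.7 normalized counts, where the count files gave 96.5. The authors' fold changes, here and for the other members, come from a different fit, so their sizes are not compared with those given here.

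Pcdh1, a delta-1 member of epithelia whose human counterpart has been linked to airway disease, was the most abundant member and was lower in Cre in each clone. It lies on chromosome 18 at 38185914 to 38212053 (ENSMUSG00000051375, minus strand). It stood at 282, 152 and 208 CPM in Cre of clones 4, 7 and 21, against 356, 204 and 320 CPM in Flp. The groups overlapped, since Cre clone 4 lay above Flp clone 7. The Cre over Flp fold was 0.792 in clone 4 (95% counting interval 0.771 to 0.815), 0.747 in clone 7 (0.720 to 0.775) and 0.651 in clone 21 (0.632 to 0.67). The group means were 214 ± 65.3 CPM over the Cre libraries, against 293 ± 79.8 CPM over the Flp libraries (mean ± SD, n = 3 each), with a fitted log2 fold change of -0.46 (SE 0.11). The authors' deposited table lists a log2 fold change of -0.37 and a mean of 5784 normalized counts for Pcdh1, where the count files gave 8612. The means from these sources were close for Pcdh10 and Pcdh17 but not for Pcdh1, and the cause was not tested.

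**Figure D2:**
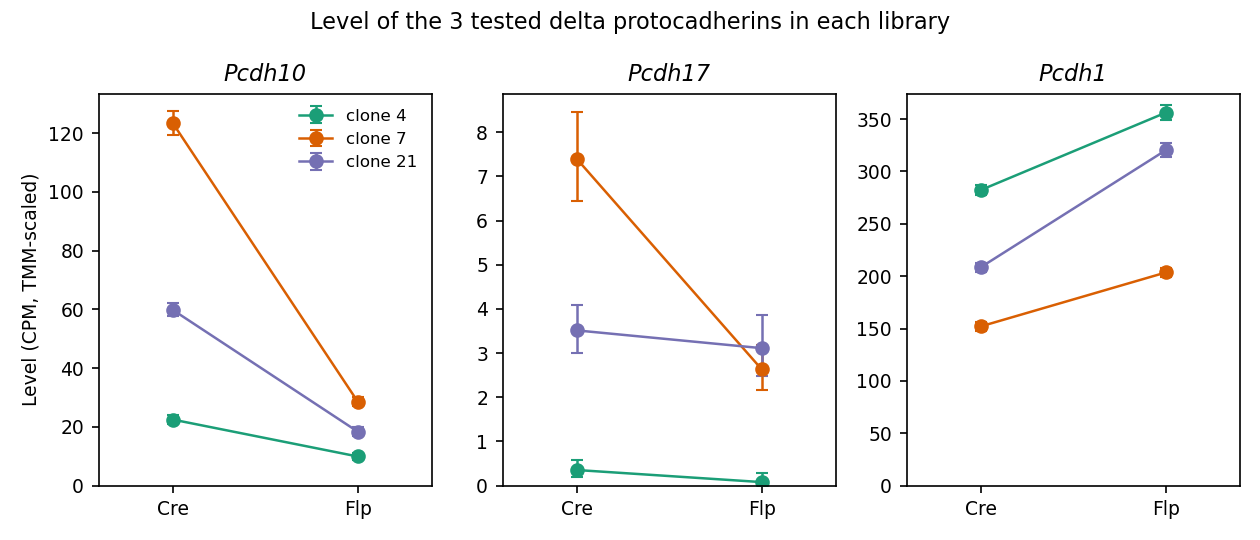
Level in CPM of Pcdh10, Pcdh17 and Pcdh1 in each library, with Cre on the left and Flp on the right of each panel and a line joining the 2 cultures of a clone. Bars are exact 95% Poisson counting intervals. Lines of Pcdh10 run down from Cre to Flp in each clone, those of Pcdh1 run up, and that of Pcdh17 is nearly flat in clone 21 and near 0 in clone 4.

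Thus 2 tested members were higher in Cre in all 3 clones, as were 14.6% of the 15355 genes tested, and 1 was lower in all 3 clones, as were 13.1%. For 0 of the 3 tested members did the Cre and Flp libraries separate without overlap, where 4.19% of tested genes lay above and 3.95% below in every Cre library. Nothing is read from these counts, as the same contrast chose the members. In bulk RNA, fewer cells that express a gene and less RNA per cell cannot be told apart.

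The levels of the detected members also varied with the clone. Pcdh10 was highest in clone 7, then clone 21, then clone 4, in the Cre and in the Flp cultures alike. Pcdh1 had the reverse order, clone 4 above clone 21 above clone 7, again in both groups. The clone means over both cultures were 16.2, 76.0 and 39.1 CPM for Pcdh10, 0.218, 5.02 and 3.31 CPM for Pcdh17 and 319, 178 and 264 CPM for Pcdh1 in clones 4, 7 and 21. For Pcdh17, clone 4 was the lowest in both groups, while the counting intervals of clones 7 and 21 overlapped in Flp at 2.16 to 3.18 and 2.48 to 3.86 CPM.

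The clone term of the edgeR quasi-likelihood fit was tested over all 15355 genes with 2 residual degrees of freedom, and 1 gene, or 0.00651%, passed the threshold of 0.05, while 8% had an unadjusted p under 0.05. That gene was Vwce, named after its value was seen, at 0.379 CPM in the Cre and 0.338 CPM in the Flp culture of clone 21 and at 31.6 to 43.5 CPM in the other libraries. The count depended on the method, with 2.7% of genes passing in DESeq2 and 1.83% when low counts were kept in edgeR. No call is given here for the 3 detected members, as their levels were part of the choice.

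Of the 8 members, 4 lie on the distal part of chromosome 14, a stretch whose genes are high in the Cre cultures of clones 7 and 21. The 28 genes within 10 Mb of Pcdh17 that averaged 1 CPM or more had median log2 ratios of 0.12, 0.91 and 0.80 in clones 4, 7 and 21, with 27 of 28 above 0 in clone 7 and in clone 21. Around Pcdh8, Pcdh20 and Pcdh9, whose windows share genes with that of Pcdh17, the medians were 0.90, 0.91 and 1.04 in clone 7 and 0.76, 0.86 and 0.86 in clone 21. These 3 genes had 0 reads in Cre of clones 7 and 21 also, where their surroundings were high.

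Pcdh17 did not stand evenly against the median of its surroundings. Its log2 ratio lay 0.56 above the median of its neighbours in clone 7 and 1.46 above in clone 4, on few reads. In clone 21 it was 0.17, against 0.80 for the neighbours, a difference of -0.62. Single neighbours spread widely, from -0.98 (Ccdc122) to 2.04 (Lrch1) in clone 7 and from -0.42 (Lcp1) to 1.32 (Tsc22d1) in clone 21. Pcdh17 lay inside both ranges. In clone 4 the highest neighbour was Kbtbd6 at 1.05, below Pcdh17. The nearest expressed protein-coding genes were Sugt1, 4808 kb before it, at 0.80 in clone 7 and 0.39 in clone 21, and Diaph3, a formin 2116 kb after it, at 1.54 and 0.80 in the same clones. How much of the Pcdh17 ratio in clone 7 goes with the stretch was not tested.

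**Figure D3:**
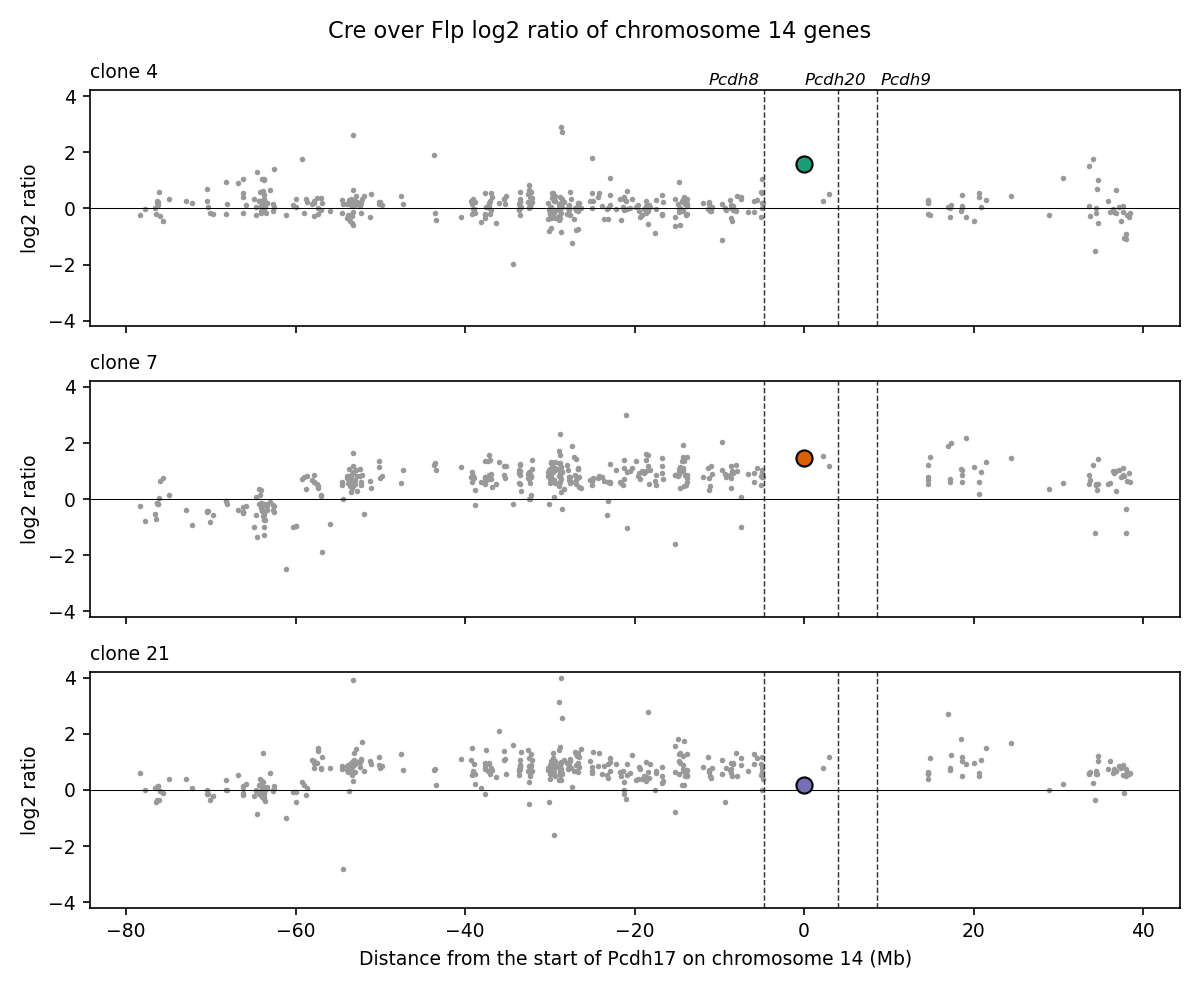
Cre over Flp log2 ratio of 407 chromosome 14 genes that averaged 1 CPM or more, in each clone, by distance from the start of Pcdh17 in Mb, with 1 gene drawn at the limit of 4. The large point is Pcdh17 and dashed lines mark the undetected Pcdh8, Pcdh20 and Pcdh9. Around Pcdh17 the grey points sit near 0.12 in clone 4, 0.91 in clone 7 and 0.80 in clone 21, and Pcdh17 lies above them in clones 4 and 7 and below them in clone 21.

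The genes around Pcdh10 and Pcdh1 had medians near 0 in every clone. The 62 genes within 10 Mb of Pcdh10 had medians of 0.11, -0.05 and 0.04 in clones 4, 7 and 21, so its ratio lay 1.07, 2.16 and 1.66 above them. Because Pcdh10 was chosen partly on this ratio, its rank among these 62 genes is a description and not a test. A higher ratio than that of Pcdh10 was found for 0 of them in clone 4, 1 in clone 7 and 1 in clone 21. Its nearest expressed protein-coding genes were D3Ertd751e, 3575 kb before it, with ratios of 0.23, 0.44 and 0.47, and Pabpc4l, 1007 kb after it, with 0.77, -1.95 and 1.53. Pabpc4l averaged 1.09 CPM, just over the cut, so its ratios carry more counting error than those of Pcdh10. The 112 genes around Pcdh1 had medians of -0.01, 0.03 and 0.01, and Pcdh1 lay below them by a difference of -0.32, -0.45 and -0.63. Single genes spread widely around these medians. Pcdh1 was likewise chosen partly on its ratio, so its rank is only described. Of the 112 genes, 21 had a lower ratio than Pcdh1 in clone 4, 16 in clone 7 and 10 in clone 21. Arap3 and Dele1, on either side of Pcdh1, had ratios of 0.71, -0.18 and 0.25 and of -0.14, 0.41 and -0.10. The medians around the undetected Pcdh7 on chromosome 5 and Pcdh18 on chromosome 3 were between -0.05 and 0.12.

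**Figure D4:**
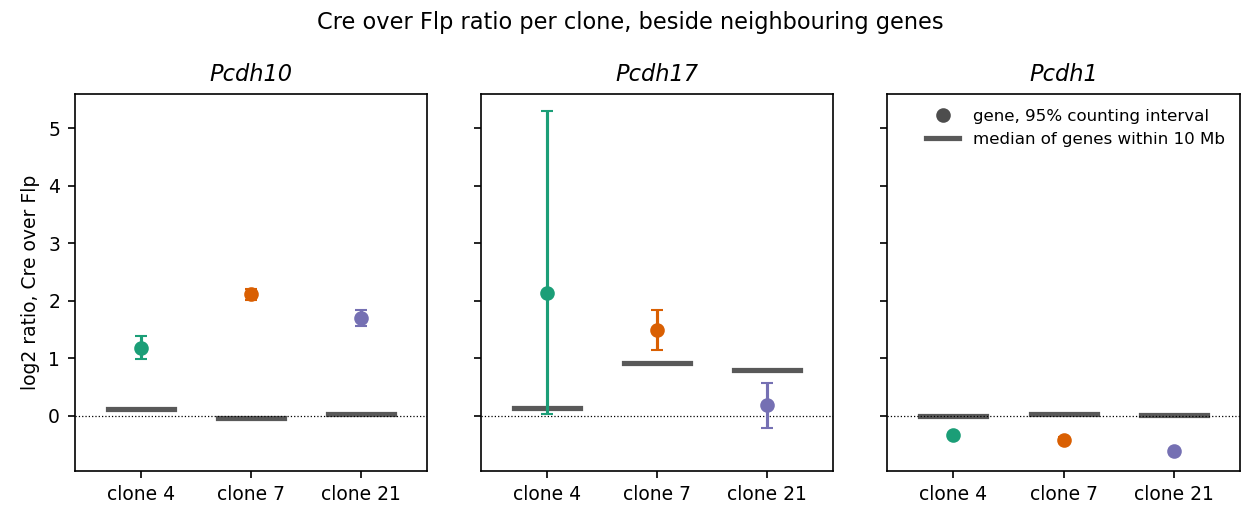
Log2 ratio of Cre over Flp in each clone for Pcdh10, Pcdh17 and Pcdh1. Points are the gene without a prior count, with 95% counting intervals. Bars are the median of genes within 10 Mb, with a prior count of 2. The Pcdh17 point of clone 4, at a fold of 4.39, thus stands above its log2 ratio of 1.58 with the prior count. Pcdh10 lies above and Pcdh1 below the bars in every clone, while Pcdh17 lies above the bar in clone 7, below it in clone 21 and has a wide interval in clone 4.

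The genes whose levels over the 6 libraries were most like those of each detected member were found by the root mean square difference of centred log2 CPM among 11661 genes. For Pcdh10 they were Ccser1 at 0.19, Hrk, a pro-apoptotic BH3-only gene, at 0.22 and the metallothionein Mt1 at 0.23. For Pcdh1 they were the vitamin C transporter Slc23a2 at 0.10, the phosphatase Dusp4 at 0.10 and Pla2g7 at 0.10. The closest genes to Pcdh17 were far less like it, with the transcription factor Gata2 at 0.87, Osbpl6 at 0.91 and Cpt1c at 0.95. The measure is not scaled, so it grows with a gene's own spread and counting error, and Pcdh17 had 2 to 216 reads per library. Between Pcdh10 and Pcdh17 the difference was 1.27, which put Pcdh10 at rank 27 for Pcdh17 and Pcdh17 at rank 8733 for Pcdh10. The difference from Pcdh1 was 1.59 for Pcdh10 and 2.35 for Pcdh17. These likenesses include the Cre and Flp difference and are a description of 6 libraries.

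Among partners of the tails, 0 genes of any list passed the edgeR test of Cre against Flp with the clone block, as 0 of 15355 genes (0%) did, while 6.82% had an unadjusted p under 0.05 and DESeq2 called 1.28%. Of the 10 WAVE complex genes all but Abi3 were tested, 9 in all, with a median log2 fold change of -0.10, beside 0.00 over all genes tested, and 3 positive values. Its most abundant member Nckap1, the subunit known to bind the tail of PCDH10, averaged 324 ± 39.9 CPM over the Cre libraries, against 304 ± 39.7 CPM over the Flp libraries (mean ± SD, n = 3 each), a log2 fold change of 0.10 (SE 0.10). Cyfip2, the WAVE gene with the smallest p, averaged 37.3 ± 4.23 CPM over the Cre libraries, against 44.8 ± 12.7 CPM over the Flp libraries (mean ± SD, n = 3 each), with an edgeR adjusted p of 0.924. Its log2 ratios in clones 4, 7 and 21 were -0.85, -0.01 and 0.16, so only clone 4 was clearly lower in Cre. Of 17 other partners, 16 were tested, 7 with positive values, and the median was -0.04. The small GTPase Rac1 stood at -0.11 and the ubiquitin ligase Mdm2, which has the smallest p of this list, at 0.25 (SE 0.14, edgeR adjusted p = 0.841). Exons of Rac1 overlap those of Daglb over 51.4% of their length, so its count is uncertain.

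Other adhesion genes of the cadherin superfamily gave the surroundings of the 3 detected members. Of 9 further non-clustered protocadherins and related cadherins, 4 were tested. The brush border cadherin Cdhr2 averaged 465 ± 114 CPM over the Cre libraries, against 525 ± 77.2 CPM over the Flp libraries (mean ± SD, n = 3 each). Pcdh11x and Pcdh19, delta protocadherins that are not among the 8, had 71 and 40 reads over all libraries. These genes, named after their values were seen, averaged 0.371 and 0.141 CPM in Cre, against 0.278 and 0.199 CPM in Flp. Over the 4 tested, the median was 0.50 with 3 positive values, and Cdhr1, also named after its value was seen, had an unadjusted p under 0.05. Among 21 other cadherins, 7 had no read and 9 were tested, with a median of 0.09 and 9 positive values. Kidney cadherin, Cdh16, was the most abundant at 819 ± 130 CPM over the Cre libraries, against 814 ± 80.7 CPM over the Flp libraries (mean ± SD, n = 3 each), a log2 fold change of 0.00 (SE 0.11), and Cdh24 had the smallest p at 0.65 (SE 0.33, edgeR adjusted p = 0.809). Cdh24 lies on chromosome 14, where its ratios in clones 4, 7 and 21 were -0.12, 1.33 and 0.71, against medians of 0.06, 0.83 and 0.78 for the 151 genes within 10 Mb. Cdhr1 lies on chromosome 14 also, with ratios of 0.88, 1.06 and 3.92 against medians of 0.15, 0.69 and 0.84 for 67 genes. The part of these neighbours in either value was not tested. Of 12 catenins and plakophilins, 9 were tested, with a median of 0.01 and 6 positive values. Beta-catenin, Ctnnb1, stood at -0.12 (SE 0.11), and p120-catenin, Ctnnd1, at -0.35 (SE 0.10, edgeR adjusted p = 0.634). Exons of Ctnnd1 and Ctnnb1 overlap those of other genes over 61.2% and 14.6% of their length.

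The clustered protocadherins end 344 kb from Pcdh1 on chromosome 18. They were low, with 10 of 56 genes at 0 reads and 19 tested, and summed to 14.2 to 25.2 CPM per Cre library and 17.6 to 46.9 CPM per Flp library, which overlap. The median log2 fold change of the 19 was -0.85, with 3 positive values and 5 of the negative ones at an unadjusted p under 0.05. Pcdhgb6 had the smallest p, at 0.625 ± 0.234 CPM over the Cre libraries, against 2.53 ± 1.09 CPM over the Flp libraries (mean ± SD, n = 3 each), with clone ratios of -2.02, -2.34 and -1.34 and an edgeR adjusted p of 0.607. With DESeq2 its adjusted p was 0.0305, and in edgeR with low counts kept it was 0.0258. Pcdhgc3 was the most abundant, at 8.52 ± 2.66 CPM over the Cre libraries, against 8.28 ± 1.70 CPM over the Flp libraries (mean ± SD, n = 3 each). The gamma genes share their last exons, which make up 45.2% of the exon length of Pcdhgb6, so reads there could not be assigned to 1 gene and these counts are uncertain.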

How the data were processed

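Total RNA of 6 iREC cultures was sequenced. The submitters' processing notes name DESeq2 2.11.40.1, featureCounts 1.6.0.3 as a counter, STAR 2.5.2b-2 as an aligner, Trim Galore 0.4.3.0 and FastQC 0.67, on mm10 and GRCm38. For strandedness, layout and gene annotation the sources used here give nothing. Raw gene counts under Ensembl identifiers were deposited for each library, not normalized. A comparison of Cre with Flp, likewise deposited by the authors, gives a mean of normalized counts (a signal), a log2 fold change, its standard error, a Wald score, and raw and adjusted p-values. Its direction is not stated and was read as Cre over Flp, as 95.6% of 12823 genes had the sign of the fit made here.

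Members and lists were chosen with earlier results of these data known. Symbols, coordinates and exon lengths came from GENCODE M21 (GRCm38), which held 49326 of the 49671 identifiers. Promoters came from RefSeq on GRCm38.p6, where 7 of the 8 members matched, all but Pcdh1. Counts were fitted in R 4.3.3 with edgeR 4.0.16 (filterByExpr, TMM, quasi-likelihood test) with clone as a block and Benjamini-Hochberg adjustment at 0.05. CPM used TMM-scaled totals, log2 ratios per clone a prior count of 2, and standard errors came from the F statistic. Fold intervals are exact (Clopper-Pearson on the reads of both libraries), intervals of single levels are exact Poisson, and a count of 0 allows 3 reads. All cover counting error only. The fits were tested on simulated data. The labels give the pairing by clone, and the Cre and Flp deviations from their group means had correlations of 0.20, 0.11 and 0.30 (clones 4, 7, 21). Alternatives used limma 3.58.1 and DESeq2 1.42.0. The text names all members, for each list the most abundant gene and the one with the smallest p (mean of at least 1 CPM), the 3 most similar genes and the nearest expressed neighbours, of which some are left out here. The summed level of the neural markers is not reported here. The clone test was planned for the members too, and its p-values for them are not given, since their levels were part of the choice. Figures were drawn with matplotlib 3.10.9.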

Additional observations from a re-analysis of the deposited data

How the results depend on the processing

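The log2 fold changes of Pcdh10, Pcdh17 and Pcdh1 kept their sign under the 10 alternatives tried, from 1.45 to 1.91, from 0.72 to 1.66 and from -0.52 to -0.38. Each gene had the same sign in all clones, and the same contrast chose the members, so the kept signs are no added support. Without the replicate block the log2 fold changes were 1.85, 0.93 and -0.45. The block changed no call over all genes, with 0 genes called without it. The count of genes called between Cre and Flp was 0 when any 1 clone was left out, 224 without a filter on low counts and 196 with DESeq2. The count over the pathway lists was 0 when any 1 clone was left out and 1 in the fit without a filter and with DESeq2, in each case Pcdhgb6 (adjusted p = 0.0258 and 0.0305). The number of genes that differed between clones was 519 without the filter, 414 with DESeq2, 0 with at least 1 CPM in 3 libraries, 0 with limma-voom and 0 to 4 when 1 clone was left out, where 2 clones remain. The cause of these shifts was not tested. Windows of 5 and 20 Mb gave mean distances of Pcdh10, Pcdh17 and Pcdh1 from their neighbours with the same sign as 10 Mb. For Pcdh17 this mean joins opposite signs, with 1.46, 0.56 and -0.62 in clones 4, 7 and 21 at 10 Mb. The clone 4 value rests on 2 Flp reads. Depth limits Pcdh17 in clone 4 and the 5 members at or under the floor, which were not detectable here.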
